A study of Mus musculus with 14 samples.

Results

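B cells of a normal mouse liver were described in a single-cell library of the digested organ. They were chosen by transcript counts. A barcode, the tag that marks 1 droplet, needed 200 or more genes and no more than 20% of its UMIs from mitochondrial genes. A UMI, or unique molecular identifier, counts 1 captured RNA molecule by its 3′ end. A B cell barcode then had at least 3 UMIs summed over Cd79a, Cd79b, Ms4a1 and Ebf1. It had no UMI of Siglech, which marks plasmacytoid dendritic cells, and at most 1 summed over the T cell genes Cd3d, Cd3e and Cd3g, the Kupffer cell genes Clec4f and Cd5l, the endothelial gene Stab2 and the stellate cell gene Dcn. Of the 5063 barcodes in the library, 4808 passed the first filters, and 221 of these were B cells, a share of 4.60% (95% exact binomial interval 4.02% to 5.23%). All intervals on counts given here cover counting error only.

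The series holds 14 mouse samples, and it concerns the purinergic receptor P2Y14 in hepatic stellate cells, the scar-forming pericytes of the liver. Single cells were taken from the digested liver of an untreated, uninjured C57BL/6 animal. Its kit was Chromium 3′ v2. The 13 bulk libraries, none from injured liver, were 4 of quiescent, unplated stellate cells and 3 of whole liver, both from LratCre+, TdTom+ animals in C57BL/6J, then 3 of stellate cells exposed in culture to 10 µM UDP-glucose, a P2Y14 agonist, for 24 h, and 3 of control cultures, both with the strain label Balbc. In the quiescent cells the Lrat promoter, active in stellate cells, drives the Cre that switches on the fluorescent protein. With 1 single-cell library there was no replicate, so its values are a description without a test.

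B cells recognise antigen with a surface immunoglobulin made of 2 heavy and 2 light chains, which signals through Cd79a and Cd79b. A mature naive B cell carries IgM and IgD, and after activation it may switch to IgG, IgA or IgE and become an antibody-secreting plasma cell. B cells also present the antigen they take up to helper T cells on MHC class II, and in the liver they circulate through the sinusoids beside Kupffer cells, T cells and other leukocytes.

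Promoter stretches are shown for class II genes and a receptor chaperone gene that were called higher in B cells than in all other barcodes. The first set belongs to the MHC class II genes, whose promoters share an upstream module that ends in the Y box, bound by NF-Y. Capitals mark its core TGATTGG. Each stretch lies upstream of the RefSeq gene start, 5′ to 3′ on the gene's strand, from RefSeq promoter windows of 300 bases in GRCm38.p6 (250 before and 50 after that start).
H2-Aa, chr17:34287844-34287933, minus strand: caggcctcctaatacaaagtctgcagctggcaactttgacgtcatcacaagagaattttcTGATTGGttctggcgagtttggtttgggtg
H2-Eb1, chr17:34305757-34305846, plus strand: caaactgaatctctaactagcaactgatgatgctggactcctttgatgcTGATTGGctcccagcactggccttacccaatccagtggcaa
H2-DMb2, chr17:34145139-34145228, plus strand: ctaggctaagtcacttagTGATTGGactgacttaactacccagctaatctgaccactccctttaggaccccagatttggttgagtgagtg
H2-Ob, chr17:34238795-34238884, plus strand: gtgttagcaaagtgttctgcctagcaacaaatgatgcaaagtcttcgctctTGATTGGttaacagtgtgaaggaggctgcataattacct
The core began 50 bases upstream of the RefSeq start in H2-Aa, 61 in H2-Eb1, 92 in H2-DMb2 and 59 in H2-Ob. Of 8 H2 class II genes listed, 7 had a window, and 6 of those held the core, the others being H2-DMb1 and H2-Oa. H2-DMa was the seventh, and its windows did not hold these letters. On either strand the core stood in 7.82% of all 32851 promoter windows. That share counts windows, whereas the 6 of 7 counts genes, which together had 8 windows. GENCODE, the source of the other gene positions given here, places some starts elsewhere: the stretches of H2-DMb2 and of Vpreb3 below lie inside longer GENCODE models of these genes.

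The other stretch carries the octamer ATGCAAAT, the element bound by Oct factors together with the B cell co-activator encoded by Pou2af1. Capitals mark the octamer, which here reads ATTTGCAT because it lies on the opposite strand.
Vpreb3, chr10:75948225-75948292, plus strand: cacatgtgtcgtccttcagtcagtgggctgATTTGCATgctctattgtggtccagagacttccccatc
The octamer began 45 bases upstream of the RefSeq start in Vpreb3. Among 39 matched genes from the receptor, transcription factor, B cell and transitional lists, 3 had it in a window, the others being Blnk and Prkcb. These 39 genes had 50 windows. Over all windows, counted singly and not by gene, the octamer stood in 1.74%. Such matches describe the letters of a window and are not evidence of binding.

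The genes of the rule came first in the check of the label. Their levels chose the barcodes and are given only as a description. The summed count of the 4 genes ran from 3 to 42 UMIs per B cell barcode, with a median of 8. All 4 genes were seen in 85 barcodes, 3 of them in 101, 2 in 30 and 1 in 5. Cd79a (chromosome 7, 24897381 to 24902197, plus strand, GRCm38) had a median of 3 UMIs and was seen in 213 barcodes. Cd79b (chromosome 11, 106311341 to 106314762, minus strand), its partner in the receptor, was seen in 196. Ebf1 (chromosome 11, 44617317 to 45008091, plus strand), a transcription factor that sets B cell identity, was seen in 179. Ms4a1 (chromosome 19, 11249675 to 11266241, minus strand), which encodes the surface protein CD20, was seen in 120. At the threshold, 5 B cell barcodes had a sum of 3, and 5 of them had an Igkc UMI and 3 an Ighm UMI. Just below it, 6 barcodes had a sum of 2 and met all other conditions, and 5 of these had an Igkc UMI and 2 an Ighm UMI.

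A further 52 barcodes reached the sum of 3 but carried other genes, 2 of them Siglech and 50 more than 1 UMI of the other-lineage genes. Their median sum was 6 and their median depth 2921 UMIs. B cell barcodes were shallower, at a median depth of 1459 UMIs (973 to 9376) and 679 genes, against 2008 UMIs and 1070 genes in the other 4587 barcodes. The median share of ribosomal protein transcripts was 33.8% in B cells, 29.9% in T cells and 15.9% in all other barcodes, and the mitochondrial share was 4.56% in B cells and 4.59% in all others. Levels below are CPM, the UMIs of a gene summed over a group and scaled to a fixed total per group. No barcode sequence occurred more than once.

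B cell markers that the rule did not use were all higher in B cells. A gene was compared when it reached 50 CPM in either sum, and it was called higher or lower at 4-fold or more after adding 10 CPM to both. Of 3577 genes compared with all other barcodes, 3.75% were called higher in B cells and 14.4% lower. Of 16 markers outside the rule, 15 were compared and all 15 were higher, with a median log2 difference of 3.78, beside -0.38 over all genes compared. These genes share the barcodes that the rule chose, so this describes the group and does not test it.

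**Figure D1:**
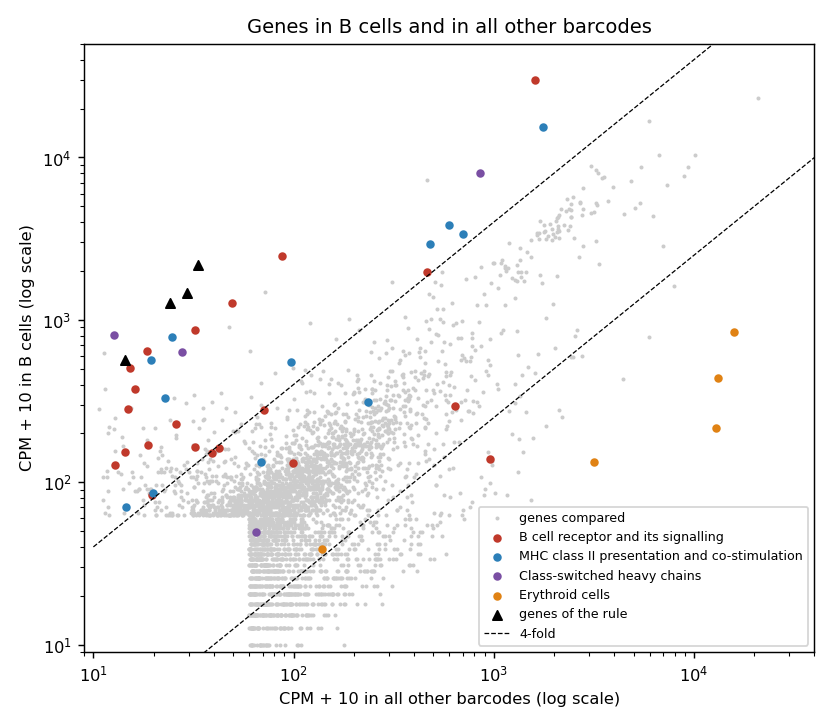
Summed level of each compared gene in B cells (vertical, CPM + 10, log scale) and in all other barcodes (horizontal, CPM + 10, log scale), with dashed lines at 4-fold. Most genes of the antigen receptor and MHC class II lists lie above the upper line and the globin genes far below the lower one.

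Most genes of the antigen receptor list were higher in B cells. Of 21 compared genes for the receptor and its signalling outside the rule, 15 were higher in B cells than in all other barcodes and 1, Fcgr2b, was lower, with a median log2 difference of 3.19. Ighm (chromosome 12, 113418558 to 113422730, minus strand), the constant gene of IgM, stood at 2468 CPM in B cells (2313 to 2631) and 77.8 CPM in all others (72.7 to 83.2). Ighd, the constant gene of IgD, stood at 635 CPM in B cells and 8.49 CPM in all others, which is 74.8-fold (58.7 to 95.9). Among B cells Ighm was seen in 93.7% of barcodes and Ighd in 60.2%. Endothelial barcodes, which should lack both, were chosen with at most 1 UMI summed over the rule genes. Their shares were 2.17% and 0.621%, at a median depth of 1986 UMIs there and 1459 in B cells. With every barcode thinned to 900 UMIs, Ighm was seen in 83.3% of B cells and 1.35% of endothelial barcodes, and Ighd in 43.4% of B cells and 0.207% of endothelial barcodes.

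Receptors that tune the antigen signal followed. Fcmr, the receptor for the Fc part of IgM, was 94.7-fold higher in B cells (70.2 to 129), at 496 CPM against 5.24 CPM. Siglecg, an inhibitory lectin of B cells, was 60.3-fold higher, at 365 CPM against 6.05 CPM. The inhibitory Cd22 stood at 144 CPM in B cells and 4.33 CPM in all others. Some adaptors and kinases inside the cell were called higher too. Blnk, a scaffold of the receptor signal, stood at 160 CPM in B cells and 8.67 CPM in all others, Bank1 at 218 and 15.9 CPM, and the kinase gene Blk at 118 and 2.80 CPM. Fcgr2b, the inhibitory IgG receptor, was the exception at 129 CPM in B cells and 952 CPM in all others. Sinusoidal endothelium also makes it, and 93.1% of endothelial barcodes had a UMI. Against T cells Fcgr2b was not called either way, at a log2 difference of 0.47.

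**Figure D2:**
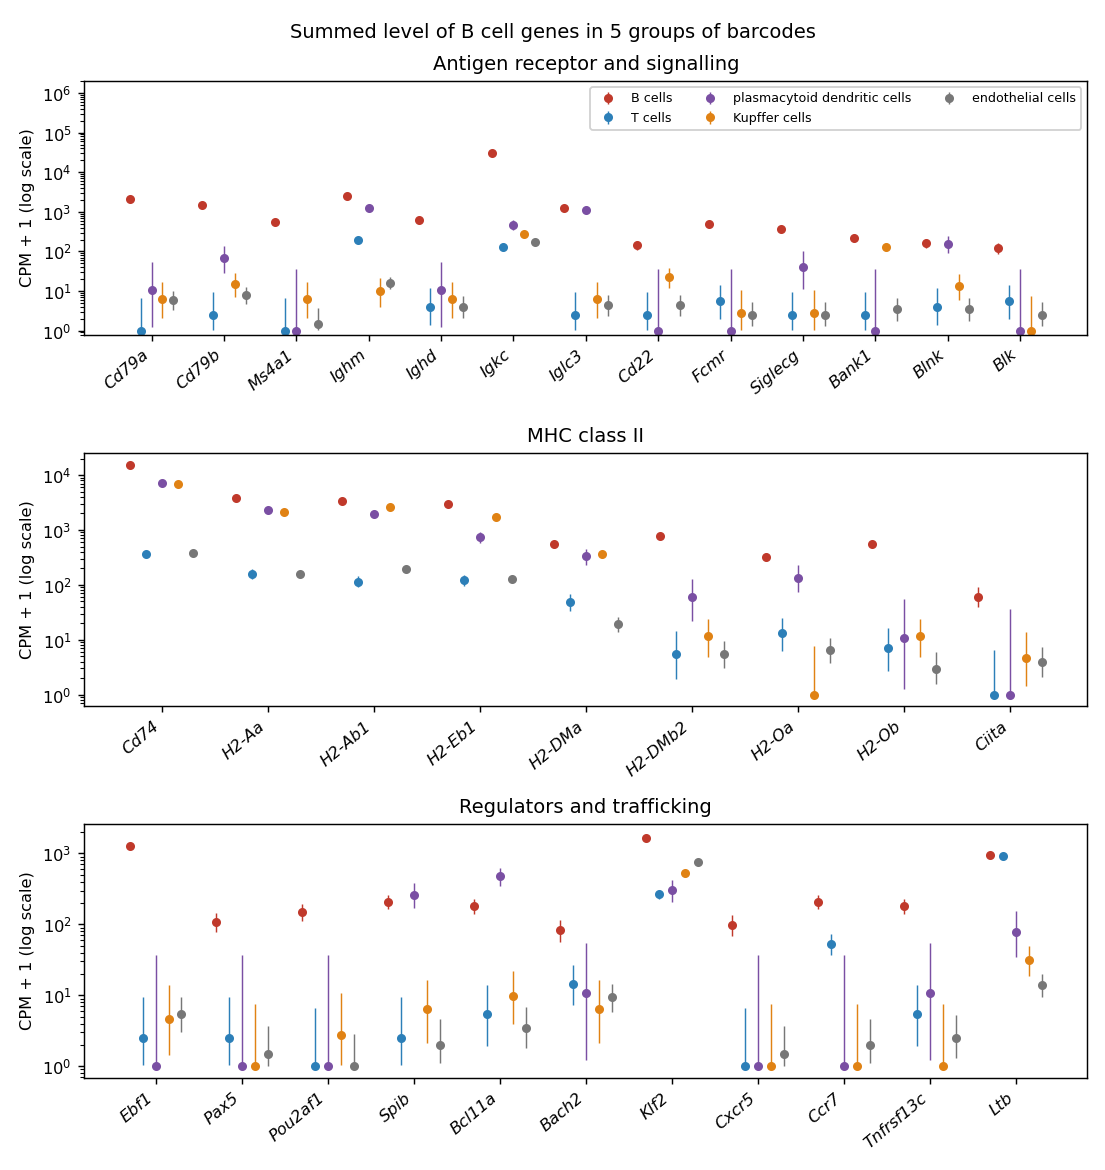
Summed level (CPM + 1, log scale) of genes in B cells, T cells, plasmacytoid dendritic cells, Kupffer cells and endothelial cells, with 95% exact Poisson intervals that cover counting error only. B cells stand highest for Cd79a, Ighd, Fcmr, H2-DMb2 and H2-Ob, while Ighm and Iglc3 are also high in plasmacytoid dendritic cells. The rule genes, Cd79a among them, were held to at most 1 UMI in sum in T cell, Kupffer cell and endothelial barcodes.

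Transcription factors of the lineage were called in part, and which ones depended on the cell type compared. Of 17 compared, 7 were higher in B cells than in all others (Pax5, Pou2af1, Pou2f2, Spib, Ikzf3, Bach2 and Bcl11a), 1 was lower (Id3) and 9 were between. Pax5, which keeps B cells committed, stood at 108 CPM in B cells and 1.72 CPM in all others, 62.7-fold (35.6 to 114). Pou2af1 stood at 147 CPM in B cells and 2.80 CPM in all others. Klf2, which holds naive lymphocytes in a quiet, circulating state, was abundant at 1637 CPM, but endothelium makes it too, and at 533 CPM in all others it stayed under 4-fold. Against T cells 8 of 17 were higher in B cells, Klf2 and Mef2c among them, while Ikzf3 (105 and 93.3 CPM) and Bach2 (81.3 and 13.5 CPM) were not called. Foxp1 and Mef2c, at 477 and 446 CPM in B cells, were 3.66-fold and 3.97-fold above all other barcodes and also missed the call.

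MHC class II genes were high as a group. Of 12 compared, 10 were higher in B cells than in all other barcodes and none was lower, with a median log2 difference of 2.56. Cd74, the invariant chain that escorts class II molecules, was seen in every B cell barcode, with 1 to 131 UMIs and a median of 25. Its level was 15412 CPM in B cells and 1758 CPM in all others. H2-Aa stood at 3806 CPM in B cells and 587 CPM in all others, H2-Ab1 at 3365 and 694 CPM, and H2-Eb1 at 2914 and 472 CPM. These are the chains that hold peptide at the surface. Of the 6 class II genes with the Y box core, 5 were called higher and H2-DMb1, at 2.10-fold, was not, while H2-DMa, without the core in its windows, was 6.23-fold higher.

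Against Kupffer cells, which also present antigen, fewer class II genes differed. Kupffer cells here are 279 barcodes with Clec4f or Cd5l. The background was 5.03% of 3436 genes higher in B cells and 14.7% lower. The surface chains differed little: the log2 difference was 0.82 for H2-Aa, 0.37 for H2-Ab1, 0.75 for H2-Eb1 and 1.17 for Cd74. Of 13 compared, 4 were higher in B cells (H2-DMb2, H2-Oa, H2-Ob and Ciita) and 2 lower (Ctss and Cd86). H2-DM and H2-O edit the peptides that class II molecules carry. H2-DMb2 stood at 771 CPM in B cells and 10.7 CPM in Kupffer cells, H2-Ob at 559 CPM and 10.7 CPM, and H2-Oa at 320 CPM in B cells with no UMI in Kupffer cells. H2-O inhibits H2-DM and is known from B cells. The other H2-DM genes were not called, H2-DMa at 543 CPM in B cells and 357 CPM in Kupffer cells and H2-DMb1 at 123 and 278 CPM. H2-DMb1 and H2-DMb2 are near-identical copies, so the division of reads between them is uncertain, and 22.8% of the exon bases of H2-Oa lie in another gene model on the other strand. Ctss, a protease that trims the invariant chain, was lower in B cells, at 302 CPM against 1644 CPM. The class II activator Ciita stood at 60.3 CPM in B cells and 3.57 CPM in Kupffer cells. The co-stimulatory Cd80 had 0 UMIs in 221 B cell barcodes, which allows up to 1.36% of barcodes with a UMI. Here and below, this limit is 3 in 221 barcodes, an approximate one-sided 95% bound and not an exact interval. It is a limit on detection at a median of 1459 UMIs and not on the share of cells that express a gene. Cd83 was seen in 11.3% of B cell and 0.311% of endothelial barcodes (5.88% and 0.104% after thinning).

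Plasmacytoid dendritic cells held some of the same transcripts. These were 34 barcodes with Siglech, holding 103600 UMIs with a median of 3145.5, so their levels are less precise. Of 3136 genes, 4.69% were higher in B cells than in them and 7.78% lower. Ighm reached 1264 CPM there (1057 to 1500) against 2468 CPM in B cells, and was seen in 94.1% of those barcodes. Iglc3 stood at 1259 CPM in B cells and 1139 CPM in plasmacytoid dendritic cells, while Iglc2 stood at 1957 and 48.3 CPM and Igkc at 30078 and 463 CPM. Without the Jchain-rich barcodes described below, Igkc was 10532 CPM in B cells. Ly6d, an early lymphoid surface gene, was 1471 CPM in B cells and 2606 CPM in plasmacytoid dendritic cells. Spib was 207 CPM in B cells and 261 CPM in them, Bcl11a 178 and 473 CPM, and Blnk 160 and 154 CPM. By contrast Pax5, Pou2af1, Fcmr, Ms4a1, Ebf1, Blk and Bank1 had no UMI in those 34 barcodes. Irf8, which drives dendritic cell development, was lower in B cells, at 262 CPM against 2876 CPM.

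Against T cells, 264 barcodes chosen by Cd3 genes, 4.7% of 2870 genes were higher in B cells and 5.02% lower. All 12 compared class II genes were higher in B cells, with a median log2 difference of 4.20. Other lymphocyte genes stood at close levels in both types. Ltb, the lymphotoxin beta gene that organises lymphoid tissue, was 947 CPM in B cells (852 to 1050) and 909 CPM in T cells. Il2rg, the shared cytokine receptor chain, was 218 and 241 CPM, and Coro1a, an actin regulator of leukocytes, 1010 and 1055 CPM. Against all other barcodes these 3 genes were 8.53-fold, 4.88-fold and 5.63-fold higher in B cells. In Il2rg, 30.5% of exon bases lie in another gene model.

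Genes of trafficking and survival known from circulating mature B cells were among those called. Cxcr5, the receptor that leads B cells to follicles, stood at 97.0 CPM in B cells and 1.17 CPM in all others. Ccr7, which guides cells to T zones, stood at 207 and 7.77 CPM. Of 13 trafficking genes compared, 6 were higher in B cells than in all others and 1, the integrin gene Itgb1, was lower, at 18.4 CPM against 240 CPM. Tnfrsf13c, the receptor for the survival factor BAFF, stood at 181 CPM in B cells and 3.88 CPM in all others. Tnfrsf13b, the receptor TACI, stood at 155 and 11.6 CPM. Of 6 survival genes compared with all others, only these 2 were called higher and 4 were between, with a median log2 difference of 0.55. Against T cells 7 were compared: the same 2 were higher and 2, Bcl2a1b and Bcl2a1d, were lower, with a median of -1.49. Ccr9, a gut-homing receptor, and the cytokine genes Il6 and Il10 had 0 UMIs in B cells, each allowing up to 1.36% of barcodes with a UMI.

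Of the subset lists, the follicular one had the most genes called. Of 6 follicular genes compared, 5 were higher in B cells than in all others. Fcer2a, the low-affinity IgE receptor CD23, stood at 191 CPM in B cells and 1.90 CPM in all others, and it was seen in 27.1% of B cell barcodes and 0.207% of endothelial ones (17.2% and 0.207% after thinning). The marginal zone list had 2 genes compared, with Mzb1 higher and Cd9 lower. The B-1 gene Cd5 had 0 UMIs in B cells. Among 6 germinal centre genes Rgs13, Mybl1 and Fas had 0 UMIs, and among 6 progenitor genes Igll1, Dntt, Il7r and Cd34 had 0, each again allowing up to 1.36% of barcodes with a UMI. Each of these subset lists holds only 6 or 7 genes.

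Transitional genes were present in part. Vpreb3, a chaperone of the immature receptor whose octamer is shown above, stood at 239 CPM in B cells (192 to 293) and 2.80 CPM in all others. It had no UMI in T cells, plasmacytoid dendritic cells or Kupffer cells. It was seen in 25.3% of B cell barcodes, with at most 6 UMIs in 1, and in 0.311% of endothelial ones (15.4% and 0.104% after thinning). Cd24a, a surface glycoprotein high on immature cells, stood at 344 CPM in B cells and 33.2 CPM in all others and was seen in 31.2% of B cell and 0.828% of endothelial barcodes (18.6% and 0.311% after thinning). Rag1 and Myb had 0 UMIs, and Cd93, a transitional marker that endothelium also makes, stood at 15.7 CPM in B cells and 111 CPM in all others.

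Immediate early genes were not raised as a list. Of 12 compared with all others, 2 were higher in B cells (Cd69 and Btg1), 1 was lower (Dusp1), and the median log2 difference was -0.15. Btg1, which restrains proliferation, stood at 1710 CPM in B cells and 300 CPM in all others, but at 1118 CPM in T cells and 1438 CPM in plasmacytoid dendritic cells. Cd69, an activation marker that also retains lymphocytes in tissue, was seen in 19.5% of B cell and 0.621% of endothelial barcodes (13.1% and 0.207% after thinning). Fos stood at 60.3 CPM in B cells and 159 CPM in all others, and Dusp1 at 60.3 and 331 CPM. Division genes were low: of 14, only 1 reached the level for comparison with all others, and it was not called. At least 3 UMIs summed over 8 mitotic genes were found in 1 of 221 B cell barcodes (0.452%) and in 53 of the others (1.16%). The others were deeper, at a median of 2008 UMIs against 1459, and 1 barcode is too few to set these shares apart.

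P2ry14, the receptor gene the series is about, had 0 UMIs in the 221 B cell barcodes, which allows up to 1.36% of barcodes with a UMI and sets no limit on the share of cells that express it. In all other barcodes it stood at 17.2 CPM, and in plasmacytoid dendritic cells at 222 CPM. Of 16 purinergic receptors and ectonucleotidases, 6 had no UMI in B cells: P2ry14, P2ry12, P2ry13, P2rx1, Adora1 and Adora3. The most abundant were Cd38, an enzyme that consumes NAD, at 139 CPM in B cells and 259 CPM in all others, and the ATP-gated channel gene P2rx4, at 52.5 and 78.7 CPM. Both were compared and neither was called.

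Other lists had few genes at a level that could be compared. Of 10 Toll-like receptors and partners, which sense microbial products, 3 were compared with all other barcodes and none was called. Cd180, a receptor on B cells, stood at 91.8 CPM in B cells and 16.3 CPM in all others, its partner Ly86 at 210 and 58.7 CPM, and Unc93b1, which carries these receptors to endosomes, at 286 and 128 CPM. With the mean CPM per barcode 2 of the 3 were called higher, and 1 was with an offset of 1 CPM or without the Jchain-rich barcodes described below. Against T cells all 3 were called higher. Tlr4 and Tlr9 had 0 UMIs in B cells, again allowing up to 1.36% of barcodes with a UMI.

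Barcodes rich in Jchain were few but carried most of the antibody RNA. Of the 221 barcodes, 7 held at least 100 UMIs of Jchain, which joins IgA and IgM into polymers. This limit was chosen after the values were seen. Their Jchain counts were 1003, 698, 301, 251, 204, 148 and 111 UMIs, while among the remaining 214 the highest count was 31. The 7 had a median of 6085 UMIs against 1434 in the remaining 214. They held 12.3% of all B cell UMIs, 98.5% of Jchain, 97.8% of Igha and 69.3% of Igkc. Immunoglobulin and Jchain transcripts took 14.99% to 47.2% of the UMIs of each of the 7.

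The 7 barcodes carried genes of the plasma cell list and had no UMI of several mature B cell genes. Mzb1, a chaperone of antibody assembly, stood at 4293 CPM in them and 416 CPM in the remaining 214. Xbp1, the factor that expands the secretory apparatus, stood at 1360 and 59.8 CPM, and Derl3, which clears misfolded proteins, at 829 CPM with no UMI in the remaining 214. All 7 had UMIs of Mzb1, Xbp1 and Derl3. None had a UMI of Ms4a1, Ebf1, Pax5, Fcmr or Ighd. They entered the group through Cd79a and Cd79b, at 574 and 234 CPM against 2391 and 1631 CPM in the remaining 214. Cd74 was 5059 CPM in them and 16869 CPM in the remaining 214. In the seventh barcode, with 9376 UMIs and 2539 genes, Cd74 had 115 UMIs and H2-Aa 49, while the other 6 had 1 or 2 UMIs of H2-Aa. Exon bases of Mzb1 overlap another gene model on the same strand over 57.2% of their length.

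**Figure D3:**
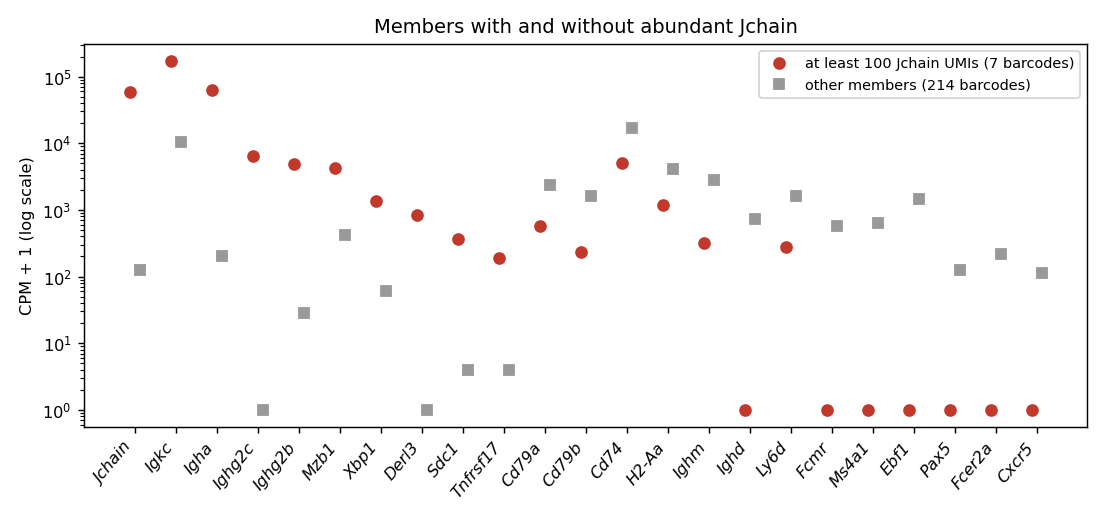
Summed level (CPM + 1, log scale) of genes in the 7 B cell barcodes with at least 100 Jchain UMIs and in the other 214. Secretory and class-switched genes lie higher in the 7, and Ms4a1, Ebf1, Pax5, Fcmr and Ighd have no UMI there.

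Each of the 7 was dominated by 1 heavy chain class. Igha led in 5 of them, with 1236, 642, 347, 272 and 512 UMIs. In another, Ighg2b led with 201 UMIs, and in the last Ighg2c led with 304, which were all the Ighg2c UMIs of the group. Kappa variable segments were also uneven. The most frequent was Igkv17-121 with 96 of 96 kappa variable UMIs in the first barcode, Igkv14-111 with 184 of 187 in the second, Igkv19-93 with 106 of 106 in the fourth, Igkv14-111 with 44 of 45 in the Ighg2b barcode and Igkv1-117 with 72 of 76 in the Ighg2c barcode. The remaining pair had 9 and 8 kappa variable UMIs. The barcodes that shared Igkv14-111 differed in heavy chain, Igha in 1 and Ighg2b in the other. Near-identical variable and constant genes can exchange reads, so single segments are uncertain.

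Pooled levels of these genes rest on the 7 barcodes. Without them Jchain was 123 CPM in B cells against 454 CPM in all other barcodes, and Igha 203 CPM against 842 CPM, so for both genes the direction turned against all other barcodes. With all 221 barcodes the levels were 7231 CPM for Jchain and 8070 CPM for Igha. Without the 7, 144 genes were called higher, 3.93% of those compared. Of the plasma cell list 3 of 4 compared genes were higher than in all others with the 7 and 1 without them, and of the class-switched list 3 of 4 and none. Outside the B cells, 9 barcodes also had at least 100 Jchain UMIs, 119 to 812 each. All 9 had more than 1 UMI of the other-lineage genes, 7 of them also reached the rule sum of 3, and together they held 87.7% of the Jchain UMIs of all other barcodes. With such barcodes left out on both sides, Jchain stood at 123 CPM in B cells and 56.2 CPM in all others, and Igha at 203 and 120.0 CPM. Among the B cell barcodes then left, 1 held 31 of the 41 Jchain UMIs and 44 of the 68 Igha UMIs. The B cell levels in this comparison therefore rest largely on that barcode and do not describe the remaining B cells in general. A Jchain UMI was seen in 7.69% of B cell barcodes and 9.52% of endothelial barcodes, and an Igha UMI in 13.1% and 19.6%, so at this depth these shares do not stand above the background (6.33% and 4.35% for Jchain after thinning, 10.4% and 9.42% for Igha). Outside the 7, only 2 barcodes held at least 5 switched heavy chain UMIs.

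IgM led among heavy chains. Ighm had the most heavy chain UMIs in 160 barcodes, Ighd in 25, Igha in 6, Ighg2b in 3 and Ighg2c in 1, with ties in 22 and no heavy chain UMI in 4. Both Ighm and Ighd were seen in 131 barcodes, Ighm without Ighd in 76, Ighd alone in 2 and neither in 12, of which 6 were among the Jchain-rich barcodes. Barcodes with and without an Ighd UMI were of similar depth, at medians of 1442 and 1465.5 UMIs. Detection was low for Ighd, at most 5 UMIs per barcode, so a barcode without a UMI is not shown to lack IgD.

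Light chain counts were mixed in most barcodes. A B cell normally uses either kappa or lambda. Igkc, the kappa constant gene (chromosome 6, 70726435 to 70726966, plus strand), and the lambda constant genes Iglc1, Iglc2 and Iglc3 on chromosome 16 were both seen in 204 of 221 barcodes. Kappa alone was seen in 15 and lambda alone in 2. The kappa share of light chain UMIs had a median of 76.5%, and the middle 80% of barcodes lay between 45.4% and 95.4%. Over 219 barcodes with at least 5 light chain UMIs, 41 held at least 90% kappa, 5 at least 90% lambda and 173 lay between. Of the 219, 40 lay within 5 points of the kappa limit, and those near the lambda limit were not counted. These classes are ranges of a share and not cell types.

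**Figure D4:**
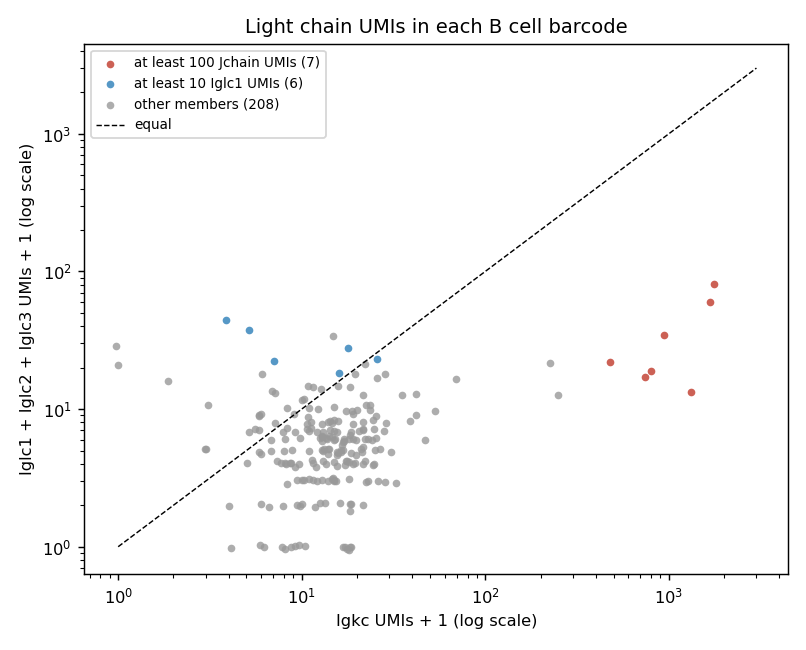
UMIs of Igkc (horizontal, plus 1, log scale) and of Iglc1, Iglc2 and Iglc3 together (vertical, plus 1, log scale) in each of 221 B cell barcodes, with a small random shift to part equal points. The 7 Jchain-rich barcodes lie far to the right, and 6 others with at least 10 Iglc1 UMIs lie near or above the dashed line of equal counts.

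Background RNA differed between the light chain genes. Igkc was seen in 99.1% of B cells and 30.3% of endothelial barcodes, Iglc2 in 81.4% and 7.87%, Iglc3 in 80.5% and 0.725%, and Iglc1 in 35.3% and 0.621%. After thinning Igkc was seen in 99.1% of B cells and 13.8% of endothelial barcodes, Iglc2 in 67.9% and 3.31%, Iglc3 in 62.9% and 0.311%, and Iglc1 in 24.9% and 0.414%. The part of free RNA in the mixed barcodes was not tested. Iglc2 and Iglc3 are near-identical in sequence, they were seen together in 153 barcodes, and reads may be divided between them. Also, 20.6% of the exon bases of Iglc3 lie in a gene model on the other strand.

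A few barcodes carried Iglc1 in quantity. Outside the Jchain-rich barcodes, 6 had at least 10 Iglc1 UMIs, a limit chosen after the values were seen, with a median of 20.5. Their median Igkc count was 10.5 (3 to 25), against 13 in the remaining 208. The lambda variable segment Iglv1 was seen in 5 of these 6 and in 9 of the 208. Among all 214 barcodes outside the Jchain-rich ones, a kappa variable segment was seen in 138, a lambda variable segment in 25 and a heavy chain variable segment in 8. Those kappa counts were spread over 62 of 160 segments, and the most widespread, Igkv10-96, was seen in 9 barcodes.

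Genes of other cell types were lower in B cells than in all other barcodes when summed by list, but some were seen in most B cell barcodes. Summed over 10 T cell markers the level was 15.7 CPM in B cells and 679 CPM in all others, with at most 1 UMI in any B cell barcode. Siglech, Ccr9, Klk1 and Cox6a2 of the plasmacytoid dendritic cell list had no UMI. The 8 Kupffer cell markers summed to 157 CPM in B cells and 2506 CPM in all others, the 8 endothelial markers to 779 and 7168 CPM, and the 8 stellate cell markers to 304 and 4078 CPM. The rule itself limits Cd3, Siglech, Clec4f, Cd5l, Stab2 and Dcn, so part of this is set by the choice of barcodes. Hepatocyte markers, which the rule did not use, summed to 4097 CPM in B cells and 13503 CPM in all others, with at least 10 UMIs in 9 B cell barcodes and 410 in 1. A hepatocyte marker UMI was seen in 86.4% of B cell barcodes and an erythroid one in 92.3%. Of the 8 hepatocyte markers only Alb was called lower than in all others, none was called against T cells or Kupffer cells, and 3 (Alb, Apoc3 and Serpina1c) were higher than in plasmacytoid dendritic cells. The part of free RNA in these counts was not tested. Among the genes with the largest deficits were the globins: Hbb-bs stood at 831 CPM in B cells and 15816 CPM in all others, and Hba-a2 at 207 and 12926 CPM. Nrp1, a co-receptor gene active in endothelium, stood at 26.2 CPM in B cells and 567 CPM in all others. The copies Hba-a1 and Hba-a2 are near-identical.

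The share of B lineage transcripts inside the 221 barcodes varied by gene. For the genes of the rule it was set by the choice of barcodes, at 76.1% of Cd79a UMIs, 72.3% of Cd79b, 81.2% of Ms4a1 and 75.4% of Ebf1. For antibody genes it was lower, at 39.3% of Igkc, 35.4% of Jchain and 24.8% of Igha. Of 260 Cd79a UMIs elsewhere, 196 stood in the 52 barcodes removed for other genes. In the 445 other barcodes with at least 3 Dcn UMIs, the stellate and fibroblast side of the liver, Ebf1 and Cd79a were each seen in 2.70%. Of the 52 removed barcodes, 12 had at least 2 Dcn UMIs, so some may stand among these 445. Ebf1 of stellate cells and B cell RNA in mixed barcodes cannot be told apart by these shares.

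In the bulk libraries B cell genes were near the lower end of detection. Fewer B cells and less RNA per cell cannot be told apart in bulk. Of 20 B cell markers only Ighm, Igkc and Ly6d reached a mean of 1 TPM, transcript abundance scaled to a fixed sum per library, over quiescent stellate cells and whole liver. Both groups stand in separate tables, so table and group cannot be told apart. Igkc was listed at 0, 0, 0.638 and 0 TPM in quiescent cells, against 4.92, 10.7 and 10.2 TPM in whole liver. Ly6d was listed at 0.324, 0, 0.202 and 0 TPM in quiescent cells, against 2.23, 3.01 and 2.73 TPM in whole liver. Ighm was 0.790, 0.663, 1.76 and 0.641 TPM in quiescent cells, against 2.01, 4.16 and 3.70 TPM in whole liver.

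All 3 genes fell in quiescent stellate cells by limma on log2(TPM + 1), with Benjamini-Hochberg adjustment over 12643 genes. The background was 10.9% of those genes lower and 67% higher, with a median log2 difference of 1.62 over all. After median-of-ratios rescaling 3470 genes were lower and 3289 higher. For each of the 3 genes the groups did not overlap. The share of all genes without overlap was not counted, so this cannot be called particular to these genes. The log2 difference was -3.02 for Igkc (SE 0.27, adjusted p = 7.14e-07), -1.70 for Ly6d (SE 0.18, adjusted p = 2.69e-06) and -1.13 for Ighm (SE 0.24, adjusted p = 0.000937). Under that rescaling the differences were larger, at -4.09 for Igkc, -2.63 for Ly6d and -2.35 for Ighm. Without whole liver replicate 2 the Ighm difference was -0.97, under the required size of 1, and Ly6d no longer reached the mean of 1 TPM, so only Igkc was called. Without whole liver replicate 3, Ly6d again missed that mean, and Igkc and Ighm (-1.04) were called. Ebf1, at 0.391, 0.461, 0.678 and 0.707 TPM in quiescent cells and 0.0946, 0.175 and 0.271 TPM in whole liver, ran in the opposite direction and was below the filter. Fitted without the filter, its log2 difference was 0.40 (SE 0.09, limma adjusted p = 0.00718), under the required size of 1. Bank1 also had the higher mean in quiescent cells, at 0.409 TPM against 0.193 TPM in whole liver, with a log2 difference of 0.24 (limma adjusted p = 0.0661). Both differences lay below the median of 1.62 over the filtered genes, and neither gene was fitted after rescaling. Cd79b was listed at 0 in all 4 quiescent libraries and at 0.502, 1.12 and 0.889 TPM in whole liver.

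**Figure D5:**
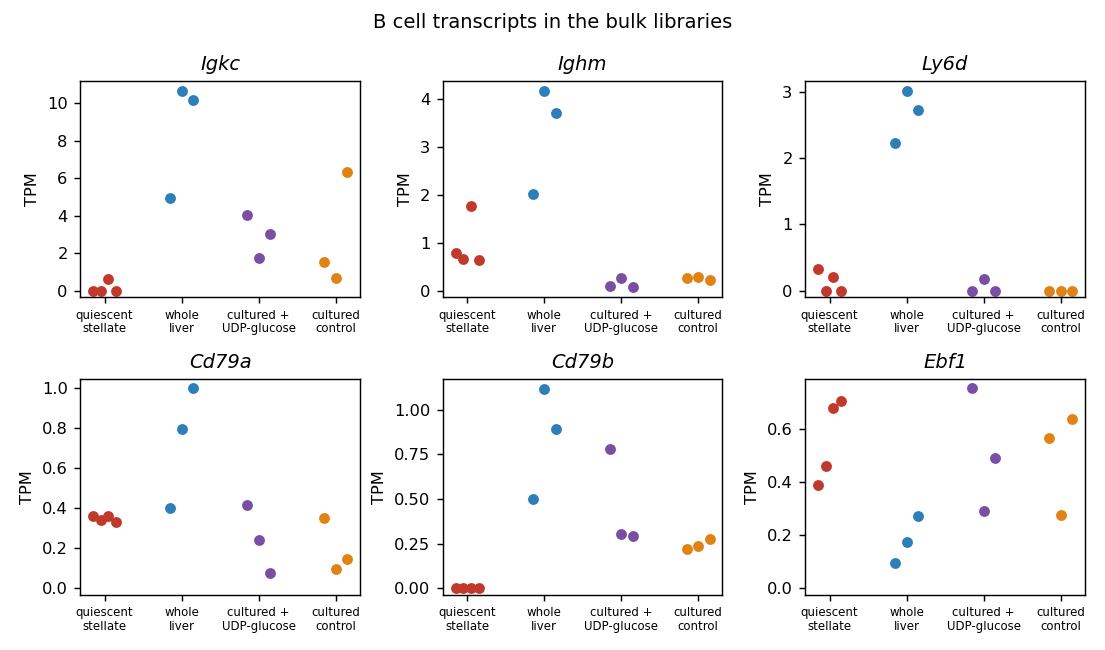
TPM of 6 B cell genes in each bulk library (points), in quiescent stellate cells, whole liver, cultured stellate cells with UDP-glucose and control cultures. Igkc, Ighm and Ly6d are lower in every quiescent library than in every whole liver one, and Ebf1 is higher in every quiescent library than in every whole liver one. The share of all genes separated in this way was not counted, so the separation cannot be called particular to these genes.

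In culture, Igkc alone of the 20 markers reached a mean of 1 TPM. It was 4.05, 1.75 and 3.01 TPM with UDP-glucose, against 1.55, 0.678 and 6.34 TPM in control cultures, and the groups overlapped. The log2 difference was 0.28 (SE 0.52, limma adjusted p = 0.900), in a comparison where 0.428% of 12161 genes were higher and 0.181% lower. This does not show that B cell transcripts were equal in both groups.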

How the data were processed

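The deposited single-cell counts are whole-number UMI counts per gene and barcode, used as deposited. Bulk values are TPM per gene, and per the labels and the submitters' processing notes the authors used bcl2fastq 2.19, kallisto 0.44.0 and Cell Ranger, with builds GRCm38 and mm10. How the counting treated strand is not stated in the labels or files. TPM keeps no read depth, so bulk depth is unknown.

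UMIs were summed per group in Python 3.11.15 with exact Poisson and Clopper-Pearson 95% intervals from scipy 1.17.1. Comparison groups needed at least 3 UMIs of their own genes: Cd3d, Cd3e and Cd3g for T cells, Siglech for plasmacytoid dendritic cells, Clec4f and Cd5l for Kupffer cells, Stab2 for endothelium. Each of these groups had at most 1 UMI summed over the other-lineage genes that were not its own. T cells, Kupffer cells and endothelium also had no Siglech UMI and at most 1 UMI summed over the rule genes. Low levels of the rule genes there are set by this choice, and other B cell transcripts may be reduced too. No doublet caller was run. The rule for named genes took up to 8 members per list with at least 50 CPM in B cells, members at 0 UMIs, and the 12 highest and 6 lowest genes by fold. Genes named beyond it were chosen after their values were seen. The bulk fit used limma (3.58.1, under R 4.3.3) on genes whose mean reached 1 TPM, two-sided, at a threshold of 0.05, with an absolute log2 difference of at least 1 for quiescent cells against liver. Fold changes on log2(TPM + 1) understate the change of low genes. A few genes of the lists are counted in the totals and are not reported here by name. Date-named rows, 26 per table, were left out. Replicates are numbered in the order of listing, and nothing says that they came from separate animals, so each p-value reflects the spread of these libraries alone, which may be technical. The members and lists were chosen with earlier results of these data known. Scripts were tested on simulated data.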

Additional observations from a re-analysis of the deposited data

Results flagged for a closer look

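In 2 of 7 groups of 4 libraries tested, 1 quiescent stellate cell library stood apart from the other 3 by its gap to the nearest library. Chance would flag about 1 in 20 groups of normally distributed values, a rate that does not hold for values listed at 0. Ighm was 1.76 TPM in replicate 3, against 0.641 to 0.790 TPM in the others. Igkc was 0.638 TPM in the same library and listed at 0 in the other 3. Any gene listed at 0 in all but 1 of the libraries is flagged whatever its value, so the Igkc flag carries no weight.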

How the results depend on the processing

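The number of B cell barcodes kept within 1.5 times of 221 under each alternative tried. The barcodes classed kappa numbered 41, but 17 with at least 20 light chain UMIs and 92 with the limit at 80%. Those classed lambda numbered 5, but 3 with at least 20 UMIs. Leaving out each bulk library in turn gave 1 to 3 of the 3 B cell genes called lower in quiescent cells. Igkc with UDP-glucose against control turned to -0.18 without control replicate 2, and leaving out each culture library gave -0.18 to 0.88. Without the 7 Jchain-rich barcodes, an alternative added after seeing the data, log2 differences turned to -0.45 for Derl3, -2.00 for Igha, -0.35 for Ighg2c and -1.81 for Jchain, because those barcodes held nearly all of these UMIs. Ighg2c was also -2.00 with a rule sum of at least 5, since its single barcode had a sum of 3. The other 117 of 121 named genes kept their sign under all 7 alternatives. Genes called higher numbered 134 to 178, and 120 of the 134 were shared without the Jchain-rich barcodes. No paired analysis was possible because the labels give the groups no shared replicate numbers. The single-cell values rest on 1 library, so animals cannot be compared, and a median of 1459 UMIs per B cell leaves low genes undetected in many barcodes.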
